A study of Mus musculus with 16 samples.

Results

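Homologous recombination and Fanconi genes are the genes whose products copy a broken DNA end from its sister chromatid and take apart crosslinks that hold the strands together. The set held 40 genes chosen by name, all of them present among the 25054 genes of the count table, and all 40 passed the filter on low counts that left 15413 genes for testing. Bulk RNA sequencing had been done on 16 osteosarcomas from mice carrying *OsxCreERT2+/-;p53fl/fl;Rb1fl/fl*, and the 8 tumors called KO here also carried *Arid1afl/fl* while the 8 tumors called WT did not. *Arid1a* encodes the DNA-contacting subunit of the BAF chromatin remodeling complex. All mice received 400 ug/g tamoxifen at 1 month and were older than 6 months at harvest. The Cre acts in cells that express Osterix that have seen tamoxifen, so host cells within every tumor keep their floxed alleles, and KO and WT tumors share the floxed *Trp53* and *Rb1* alleles. The 8 KO tumors bore 8 different animal names, whereas the 8 WT tumors came from 4 mice, N42 giving 4 of them, N43 giving 2, and N215 and N25 giving 1 apiece, the last taken from the lung.

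In homologous recombination, the MRN complex and its nucleases cut back the broken end, BRCA1, PALB2, and BRCA2 prepare the exposed strand for exchange, the BCDX2 and CX3 complexes and RAD54 translocases assist that exchange, and helicases and nucleases dissolve the joined molecules. The Fanconi core complex is a ubiquitin ligase that marks FANCD2 and FANCI at crosslinked DNA, and the marked clamp brings in nucleases and the recombination genes. Many of these genes are transcribed mainly in cells that replicate their DNA, which is why their levels in tumors are commonly read beside those of proliferation genes such as *Mki67* and *Top2a*.

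Libraries held 1109487 to 15059640 counts in KO tumors and 7806160 to 16962329 in WT tumors, so 3 counts corresponded to 0.203 to 6.69 CPM (counts scaled to a common library total) in KO and to 0.146 to 0.340 CPM in WT. *Arid1a* itself, counted over the whole gene, stood at 187 ± 57.5 CPM (SD, n = 8) in KO and 167 ± 31.8 CPM in WT (log2 fold change 0.16 ± 0.22 SE, edgeR adjusted p = 0.715). Exons were not counted apart, so the loss of floxed exons was not tested. Osteoblast genes (12 in the list) took 0.0575% to 3.87% of counts in KO and 0.387% to 10.1% in WT, and *Sp7*, which encodes Osterix, had no count in 1 KO tumor. Skeletal muscle genes took 9.44% and 10.97% of counts in the KO tumors Montana and Oregon, salivary gland genes took 9.44% in Prince, and lung genes took 0.495% in Massa and 3.87% in the lung tumor of N25. Macrophage genes (13 in the list) took 0.0188% to 0.16% of counts in KO and 0.0867% to 0.424% in WT, and only Massa and Zelda among KO tumors reached the WT range. Zelda also had the most liver, erythroid, and lymphoid counts of the 16 tumors, at 0.314%, 0.231%, and 0.194%. The part of these cells in the differences between KO and WT was not tested. In bulk tissue, fewer cells of a type and less RNA per cell cannot be told apart.

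The mean log2 CPM of *Mki67* and *Top2a*, used below as the proliferation level, was 5.96 ± 3.15 (SD, n = 8) in KO and 6.82 ± 0.97 in WT, and the difference of -0.86 did not pass a 2-sided exact permutation test over tumors (p = 0.466). Its sign rested on 3 KO tumors, since without Prince, Montana, and Oregon KO tumors were higher by 1.02 (exact permutation p = 0.269). The sign of the difference depended on averaging logs, as the edgeR log2 fold changes, on the scale used for the members, were 1.503 ± 0.91 (SE) for *Mki67* (adjusted p = 0.335) and 0.19 ± 0.87 for *Top2a* (adjusted p = 0.926), both above 0. KO tumors were spread far more widely. Montana, Prince, Oregon, and Massa stood at 1.99 to 4.03, below the lowest WT tumor at 5.30, and Ohio, Zelda, and Medusa stood above the highest WT tumor at 8.29, which left only Grilka inside the WT range.

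Few of the genes differed between KO and WT tumors beyond the spread between tumors. *Recql5*, a RecQ helicase that binds RNA polymerase, was the 1 member of 40 that rose in KO tumors in the comparison without a covariate, where 1.86% of all genes tested rose. No member fell, against 2.15% of all genes. With the proliferation level in the fit, *Recql5*, *Nbn*, *Uimc1*, and *Dna2* rose in KO tumors, 4 of 40 members against 2.72% of all genes, and no member fell, against 3.98% of all genes. WT tumors shared mice, and these calls were not kept in fits that treated mice otherwise, for a reason that was not tested. No member was called, with or without the covariate, with a random effect for the mouse in limma-voom, with counts summed per mouse, or without the 4 tumors of N42, nor with a ribosomal RNA covariate in edgeR. Few genes of any kind were called there. Without the proliferation level they were, in that order, 17 of 15413, 10 of 16007, 8 of 16050, and 7 of 15413. With it they were 19, 25, 21, and 13. A count of 0 of 40 members is near those shares. In the GENCODE vM21 annotation of GRCm38 the 4 members called in the main fits are *Recql5* (ENSMUSG00000020752, chr11:115892595-115933477, minus strand), *Nbn* (ENSMUSG00000028224, chr4:15957925-15992589, plus strand), *Uimc1* (ENSMUSG00000025878, chr13:55027880-55100300, minus strand), and *Dna2* (ENSMUSG00000036875, chr10:62947026-62974185, plus strand), and 8 of the 40 members lie on chromosome 11.

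The members' estimates leaned to higher levels in KO tumors without passing the test. Without the covariate, the log2 fold change was above 0 in 35 of 40 members with a median of 0.57, beside 55.9% of all genes and a median of 0.10. At equal proliferation it was above 0 in 31 of 40 members with a median of 0.45, beside 49.1% of all genes and a median of -0.01. These leanings rested in part on single tumors. Without Medusa the median of 0.57 fell to 0.21 and without Ohio to 0.35, and without Prince, Montana, and Oregon the median at equal proliferation was 0.05, with 21 of 40 members above 0 and a median of -0.20 over all genes. At an unadjusted p under 0.05, edgeR gave 6 members higher and 0 lower without the covariate, and 9 higher and 0 lower with it. The share of all genes at that p was not taken. DESeq2 called 6 members higher (*Fancf*, *Mus81*, *Nbn*, *Rad52*, *Recql5*, and *Uimc1*) and 0 lower without the covariate, where it called 7.76% of 20078 genes higher, and limma-voom, with a random effect for the mouse, called 0 members in either direction. In that limma-voom fit the log2 fold change was above 0 in 24 of 40 members.

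**Figure D1:**
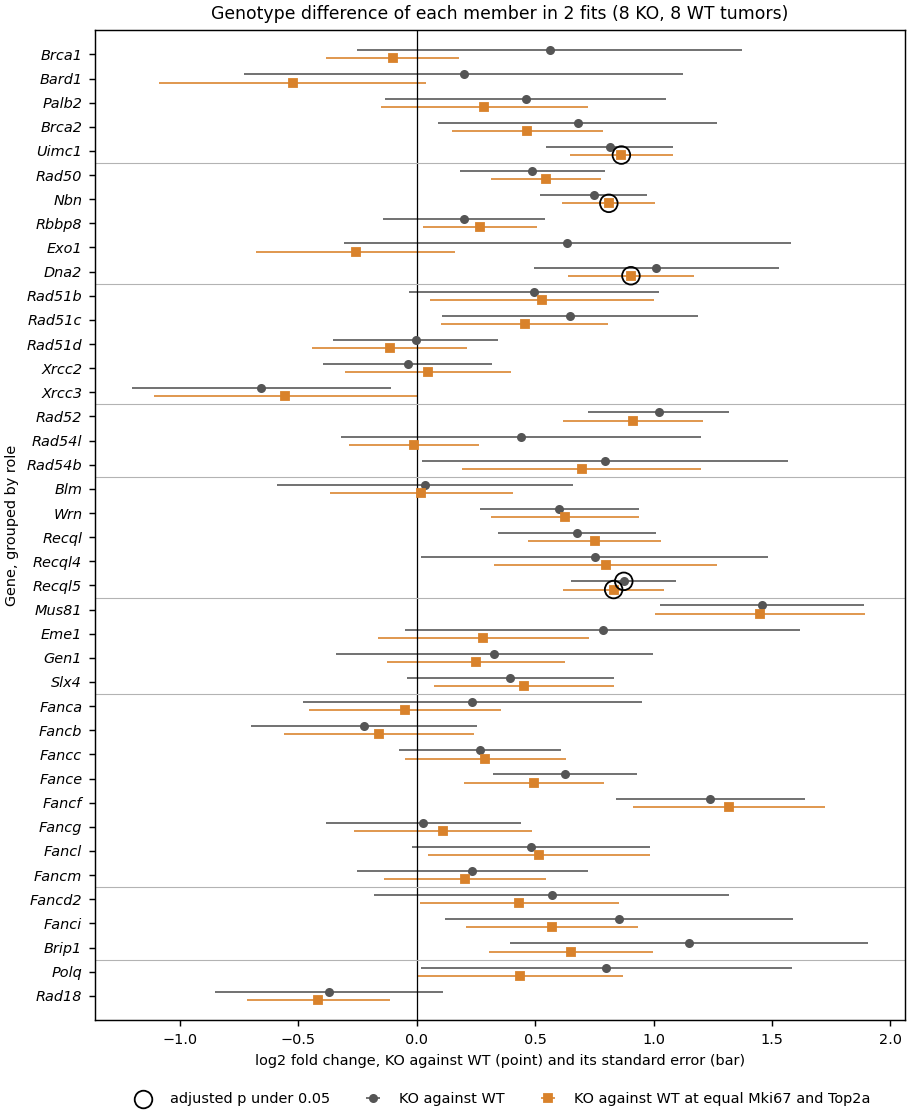
Log2 fold change between 8 KO and 8 WT tumors (x axis, points, with bars of 1 standard error) for each of the 40 genes (y axis, grouped by role), without a covariate (gray circles) and with the *Mki67* and *Top2a* level in the fit (orange squares). Black rings mark an adjusted p under 0.05, which *Recql5* had in both fits and *Uimc1*, *Nbn*, and *Dna2* had only with the covariate in the fit.

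KO tumors were spread more widely than WT tumors. The 8 KO tumors bore 8 animal names while the 8 WT tumors came from 4 mice, so the WT spread lies partly within mice. The part of shared mice in the difference in spread was not tested. The SD of log2 CPM was larger among KO than among WT tumors for 40 of 40 members, with medians of 1.74 and 0.54, but this was also so for 90.4% of all genes, whose medians were 1.11 and 0.51. In 38 members at least 1 KO tumor exceeded every WT tumor, and in 34 at least 1 KO tumor lay below every WT tumor. The shares of all genes with such tumors, or with a count of 0, were not taken. Counts of either kind are therefore not read as particular to the members. Medusa had the highest CPM of all 16 tumors for 21 members. A count of 0 occurred in at least 1 KO tumor for 20 members and in no WT tumor for any member. Massa, the shallowest library, had 0 counts for 17 members, which allows up to 6.69 CPM there, and Montana had 0 counts for 5. In log2 CPM a 0 in a shallow library lies below what its depth can show, which widens the KO spread. Without Massa and Grilka, a choice made after seeing the data, the SD was larger in KO for 38 of 40 members (median 1.48) and for 80.7% of all genes (median 0.87), and a KO tumor lay below every WT tumor for 31 members and above for 38.

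**Figure D2:**
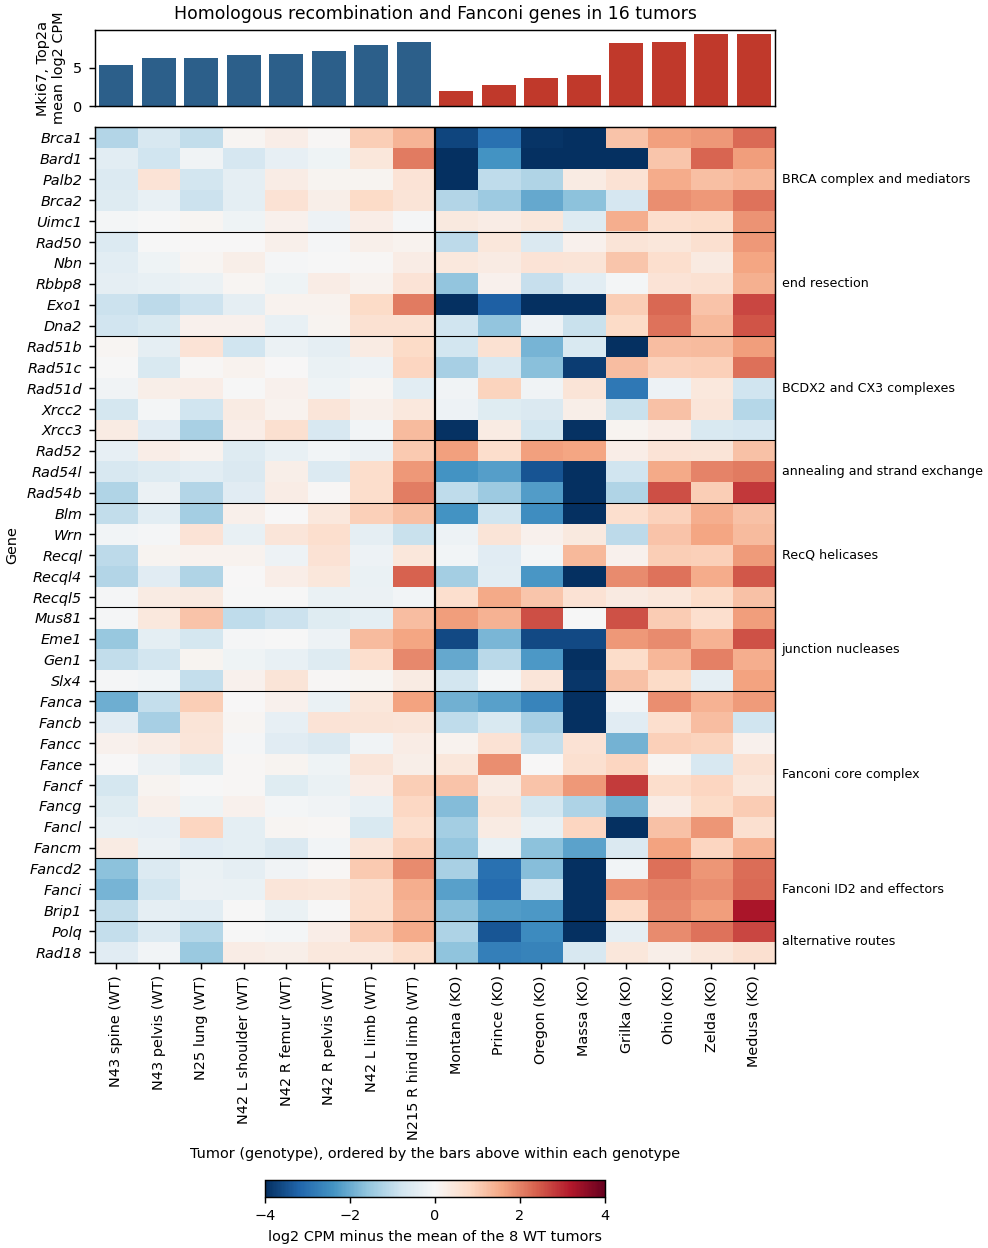
Log2 CPM of each gene (rows, grouped by role) minus its mean over the 8 WT tumors, by tumor (columns, ordered within genotype by the mean log2 CPM of *Mki67* and *Top2a* shown as bars), with colors saturating at 4 log2 units. Montana, Prince, Oregon, and Massa are blue for most members while Ohio, Zelda, and Medusa are red, and the WT tumors differ less. Massa had no count for 17 of the members.

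Among BRCA1 partners and mediators (*Brca1*, *Bard1*, *Palb2*, *Brca2*, *Uimc1*), the log2 fold change ran from 0.20 to 0.81 and none of the 5 passed the test without the covariate. *Uimc1* encodes the ubiquitin-binding protein that holds BRCA1 at damaged chromatin. Its level was 22.3, 47.7, and 113 CPM (lowest, median, and highest) in KO and 28.3, 31.7, and 38.8 CPM in WT. All KO tumors but Massa exceeded all WT tumors, and Massa was the lowest of the 16, on 10 counts. The log2 fold change was 0.81 ± 0.27 (SE, edgeR adjusted p = 0.0859), and 0.86 ± 0.22 at equal proliferation (edgeR adjusted p = 0.0266). *Uimc1* shares up to 416 bases of exon with *Gm6344* on the opposite strand.

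*Brca1*, the ubiquitin ligase subunit that promotes resection, had 0, 17.7, and 72.4 CPM in KO and 6.65, 15.9, and 39.0 CPM in WT. The KO values fell on either side of the WT values, with Montana, Prince, and Oregon at 0.839 to 1.74 CPM, Massa without a count, and the other 4 at 33.6 to 72.4 CPM. The log2 fold change was 0.56 ± 0.81 (edgeR adjusted p = 0.728), and with the proliferation level in the fit it was -0.10 ± 0.28 (edgeR adjusted p = 0.875). *Bard1*, the obligate partner of BRCA1, gave 0.20 ± 0.93 and -0.52 ± 0.56 in the same fits, *Brca2* gave 0.68 ± 0.59 and 0.47 ± 0.32, and *Palb2*, which bridges BRCA1 and BRCA2, gave 0.46 ± 0.59 and 0.28 ± 0.44.

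The genes of end resection were *Rad50*, *Nbn*, *Rbbp8*, *Exo1*, and *Dna2*. *Nbn*, the signaling subunit of the MRN complex, had 23.0, 26.9, and 55.8 CPM in KO and 13.7, 18.7, and 22.6 CPM in WT. Its KO and WT values did not overlap, which was so, with KO higher, for 2 of 40 members (*Nbn* and *Recql5*) and for 0.208% of all genes. The margin between the lowest KO tumor, Prince, and the highest WT tumor, that of N215, was narrow. The log2 fold change was 0.75 ± 0.22 (edgeR adjusted p = 0.0654), and at equal proliferation it was 0.81 ± 0.20 (edgeR adjusted p = 0.0231). Per kilobase of exon, *Nbn* was also the most highly expressed member in both groups, at 12.4 ± 4.44 CPM per kb in KO and 7.37 ± 1.13 CPM per kb in WT.

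*Dna2*, a nuclease and helicase of long-range resection, had 4.07, 16.2, and 72.6 CPM in KO and 7.31, 13.9, and 19.3 CPM in WT. Prince and Montana were below every WT tumor, Massa had 3 counts, and Grilka, Zelda, Ohio, and Medusa were above all of them. The log2 fold change was 1.01 ± 0.52 (edgeR adjusted p = 0.25), and its error shrank with the proliferation level in the fit, where it was 0.90 ± 0.26 (edgeR adjusted p = 0.0495). *Exo1*, the 5′ to 3′ exonuclease of the same step, had 0, 5.58, and 35.1 CPM in KO and 2.51, 5.03, and 23.5 CPM in WT. Massa, Montana, and Oregon had no *Exo1* count, and the highest KO tumor was again Medusa. Its log2 fold change was 0.64 ± 0.94 without the covariate and -0.26 ± 0.42 with it. *Rad50*, the ATPase of the MRN complex, gave 0.49 ± 0.31 and *Rbbp8*, which starts resection, gave 0.20 ± 0.34.

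The genes of the BCDX2 and CX3 complexes (*Rad51b*, *Rad51c*, *Rad51d*, *Xrcc2*, *Xrcc3*) made up the role with the lowest median. The log2 fold change was above 0 in 2 of 5, with a median of -0.0041, and none passed the test with or without the covariate. *Xrcc3*, a subunit of CX3, had 0, 1.52, and 3.15 CPM in KO and 0.904, 2.61, and 6.13 CPM in WT. The groups overlapped, and Massa, Montana, and Grilka had fewer than 3 counts. Between KO and WT, the log2 fold change was -0.66 ± 0.55 (edgeR adjusted p = 0.501), and *Rad51c*, at 0.65 ± 0.54, had the highest estimate of the 5.

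*Rad52*, which anneals single strands, had 13.4, 21.8, and 35.2 CPM in KO and 7.79, 9.90, and 23.5 CPM in WT. Every KO tumor exceeded 6 of the 8 WT tumors, N215 at 23.5 CPM and N43 pelvis at 13.5 CPM lay within the KO range, and Oregon, Montana, and Massa were the highest of all tumors. On the log2 scale, KO minus WT was 1.02 ± 0.30 (edgeR adjusted p = 0.0599), and at equal proliferation it was 0.91 ± 0.30 (edgeR adjusted p = 0.0718). The translocases *Rad54l* and *Rad54b* gave 0.44 ± 0.76 and 0.80 ± 0.77 without the covariate.

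Of the RecQ helicases (*Blm*, *Wrn*, *Recql*, *Recql4*, *Recql5*), *Recql5* had 17.5, 21.9, and 38.8 CPM in KO and 11.1, 13.1, and 17.4 CPM in WT. Its KO values all exceeded its WT values, with Grilka barely above the lung tumor of N25, and Prince was the highest. Between KO and WT, the log2 fold change was 0.87 ± 0.22 (edgeR adjusted p = 0.0376), and at equal proliferation it was 0.83 ± 0.21 (edgeR adjusted p = 0.0297). Its exons share up to 196 bases with *Sap30bp* on the opposite strand, and those of *Recql* up to 1779 bases with *Pyroxd1*, also on the opposite strand. *Blm*, the helicase that dissolves joined molecules, gave 0.03 ± 0.63, and *Wrn*, *Recql*, and *Recql4* gave 0.60 ± 0.34, 0.68 ± 0.33, and 0.75 ± 0.73, none of which passed the test.

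The calls rested on several single tumors. Leaving out each of the 16 tumors in turn, the call of *Recql5* without the covariate was lost in 10 (without Medusa, Montana, Prince, Oregon, N43 spine, N43 pelvis, or any tumor of N42), with an adjusted p of at most 0.0879. With the covariate, the call of *Nbn* was lost in 3 of 16 (without Medusa, N43 spine, or N42 R pelvis, adjusted p at most 0.0811) and that of *Uimc1* in 5 (also without Grilka or N42 L shoulder, at most 0.0829). That of *Recql5* was lost in 7 (without Medusa, Oregon, N43 spine, or any tumor of N42, at most 0.09) and that of *Dna2* in 10 (also without Montana, Ohio, or N43 pelvis, at most 0.141), and no sign changed.

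**Figure D3:**
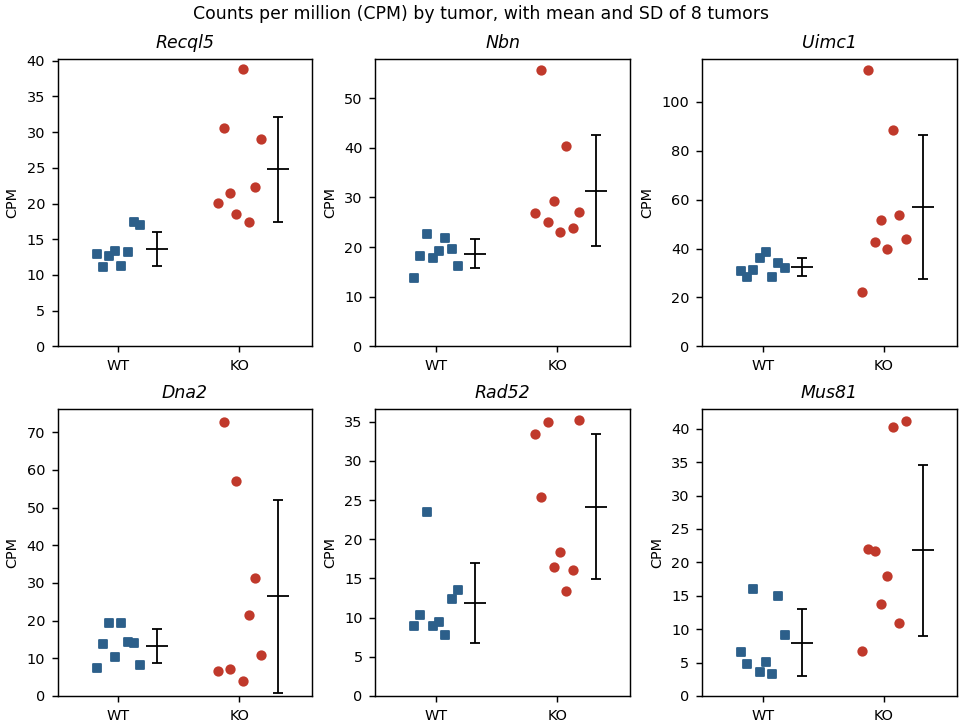
CPM (y axis) of 6 members in each WT tumor (blue squares) and KO tumor (red circles), with the mean and SD of 8 tumors beside each group. The groups do not overlap for *Recql5* and *Nbn*, and *Uimc1* overlaps only through Massa.

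*Mus81*, the catalytic subunit of a structure-specific nuclease, had the largest log2 fold change of the members. Its level was 6.69, 19.8, and 41.1 CPM in KO and 3.25, 5.85, and 15.99 CPM in WT. The groups overlapped through Massa, Zelda, and Ohio among KO tumors and through N215, the lung tumor of N25, and N43 pelvis among WT tumors. On the log2 scale, KO minus WT was 1.46 ± 0.43 (edgeR adjusted p = 0.0618), with nearly the same value at equal proliferation, 1.45 ± 0.44 (edgeR adjusted p = 0.0592). *Mus81* shares up to 173 bases of exon with *Efemp2* on the opposite strand, so that part of its counts could not be assigned to a strand.

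*Eme1*, the partner subunit of MUS81, was low in some tumors where *Mus81* was high. It had 0, 2.82, and 11.8 CPM in KO and 0.550, 1.72, and 6.01 CPM in WT, with no count in Montana and Oregon, where *Mus81* reached 21.7 and 41.1 CPM, nor in Massa, whose depth cannot tell the genes apart. For *Eme1* the estimate on the log2 scale was 0.78 ± 0.83 (edgeR adjusted p = 0.612) and 0.28 ± 0.45 at equal proliferation (edgeR adjusted p = 0.864). The resolvase *Gen1* and the nuclease scaffold *Slx4* gave 0.33 ± 0.67 and 0.40 ± 0.44.

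In the Fanconi core complex (*Fanca*, *Fancb*, *Fancc*, *Fance*, *Fancf*, *Fancg*, *Fancl*, *Fancm*), 7 of 8 estimates were above 0 (median 0.25 on the log2 scale), and none passed the test. *Fancf*, an adaptor subunit, had 3.32, 5.34, and 18.8 CPM in KO and 1.54, 2.62, and 5.33 CPM in WT. Grilka, a shallow library, was the highest, and the highest WT tumor, that of N215, lay within the KO range. *Fancf* shares up to 253 of its 1691 bases of exon with *Gas2* on the opposite strand. Between KO and WT, the log2 fold change was 1.24 ± 0.40 (edgeR adjusted p = 0.0804), and 1.32 ± 0.41 at equal proliferation (edgeR adjusted p = 0.0601). *Fance*, which links the core to FANCD2, followed at 0.63 ± 0.30, and *Fancl*, the ligase subunit, gave 0.48 ± 0.50.

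The clamp proteins *Fancd2* and *Fanci* and the helicase *Brip1* act after the core complex. *Brip1* had 0, 6.26, and 60.4 CPM in KO and 3.02, 5.57, and 15.9 CPM in WT, and *Fanci* had 0, 8.50, and 19.9 CPM in KO and 0.989, 4.53, and 11.5 CPM in WT. Both genes were at or under 2.24 CPM in Montana, Prince, and Oregon, had no count in Massa, and were at 10.7 CPM or more in the other KO tumors. Without the covariate the log2 fold change was 1.15 ± 0.76 for *Brip1* (edgeR adjusted p = 0.379) and 0.85 ± 0.73 for *Fanci* (edgeR adjusted p = 0.518). At equal proliferation the estimates were 0.65 ± 0.35 and 0.57 ± 0.36, and *Fancd2* gave 0.57 ± 0.75 and 0.43 ± 0.42 in the same fits.

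Of the genes of alternative routes, *Polq*, the polymerase of microhomology-mediated end joining, had 0, 5.14, and 56.6 CPM in KO and 3.87, 8.43, and 24.7 CPM in WT. Prince, Oregon, and Montana were below every WT tumor, Massa had no count, and Ohio, Zelda, and Medusa were above all WT tumors. On the log2 scale, KO minus WT was 0.80 ± 0.78 (edgeR adjusted p = 0.578). *Rad18*, a ubiquitin ligase of damage tolerance, gave -0.37 ± 0.48, 1 of the 5 estimates below 0 among the members.

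More members passed the test on the proliferation level than on the genotype. In the fit with both terms, 23 of 40 members rose with *Mki67* and *Top2a* among tumors of the same genotype, beside 8.37% of all genes, and no member fell with them, beside 8.27% of all genes. The members' slopes, in log2 units of the gene per log2 unit of the proliferation level, ran from -0.10 to 1.07 with a median of 0.30, beside a median of 0.0041 over all genes. At an unadjusted p under 0.05, edgeR gave 28 members higher and 0 lower, DESeq2 called 27 higher and 0 lower, and limma-voom 22 higher and 0 lower. In either direction, DESeq2 called 4888 of 21168 genes and limma-voom 1139 of 15413. The share of all genes at an unadjusted p was not taken.

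*Exo1* had the steepest slope, 1.07 ± 0.12 (SE, edgeR adjusted p = 3.52e-05). *Eme1* at 0.88 ± 0.11 (edgeR adjusted p = 8.65e-05), *Brca1* at 0.87 ± 0.08 (edgeR adjusted p = 2.34e-06), *Fanci* at 0.74 ± 0.09 (edgeR adjusted p = 8.34e-05), and *Brip1* at 0.71 ± 0.08 (edgeR adjusted p = 4.4e-05) made up the 5 members with the smallest p. All 5 BRCA1 partners and mediators, all 3 genes of the Fanconi clamp and its helicase, both alternative-route genes, and 4 of 5 resection genes passed. By contrast, 1 of 5 genes of the BCDX2 and CX3 complexes (*Rad51c*, 0.42 ± 0.08) and 2 of 8 core complex genes (*Fanca*, 0.64 ± 0.11, and *Fancm*, 0.34 ± 0.08) did.

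Several genes with a large genotype estimate had slopes that did not pass the test. *Mus81* had -0.01 ± 0.10, *Recql5* -0.05 ± 0.05, *Rad52* -0.07 ± 0.06, *Fancf* 0.09 ± 0.09, and *Nbn* 0.10 ± 0.04 (edgeR adjusted p from 0.118 to 0.962). Others with a larger genotype estimate than *Nbn* had slopes that passed. Among them were *Brip1* (estimate 1.15, slope 0.71), *Fanci* (0.85, 0.74), *Polq* (0.80, 0.68), and *Rad54b* (0.80, 0.63), whose genotype estimates were not called. *Uimc1*, at 0.15 ± 0.05 (edgeR adjusted p = 0.0438), and *Dna2*, at 0.45 ± 0.06 (edgeR adjusted p = 0.000193), rose with the proliferation level and in KO tumors in the same fit. Slopes were not tested against each other.

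**Figure D4:**
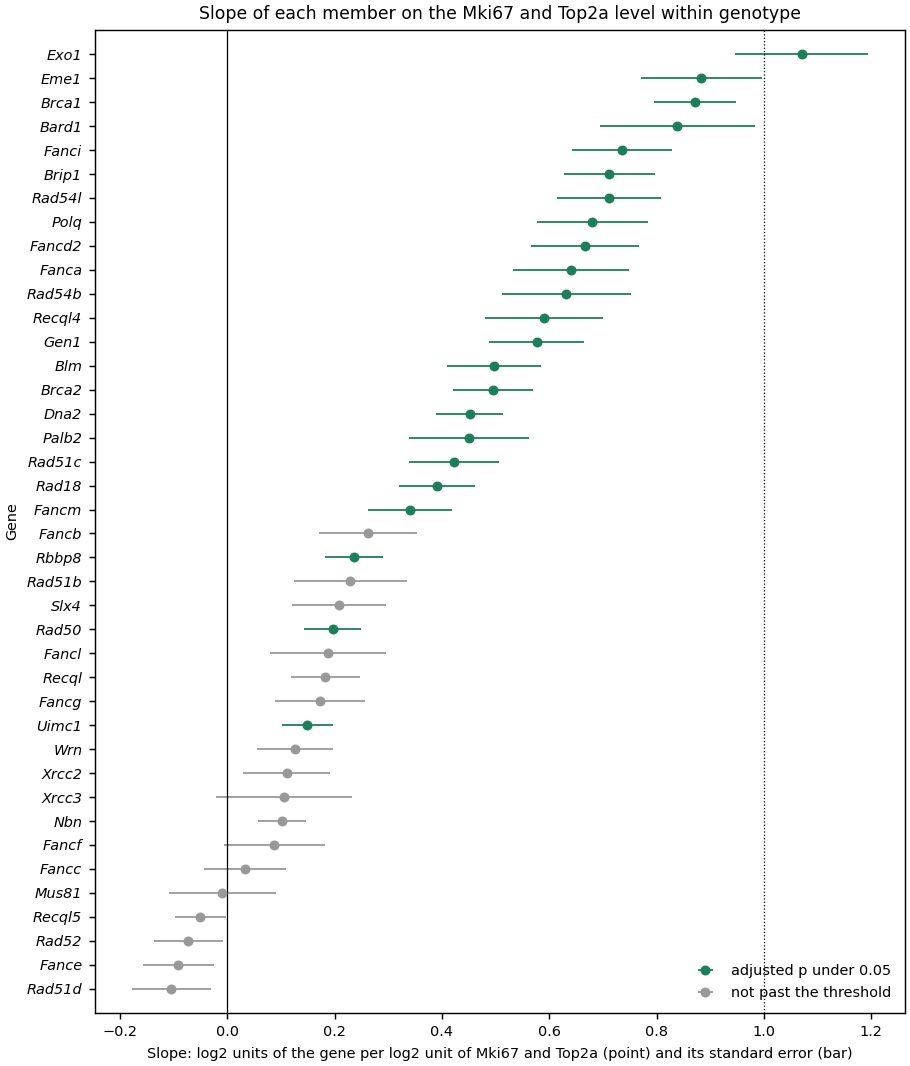
Slope of each gene (y axis) on the mean log2 CPM of *Mki67* and *Top2a* in the fit with genotype (x axis, points with bars of 1 standard error). The 23 green genes had an adjusted p under 0.05, from *Uimc1* at 0.15 to *Exo1* at 1.07, and the dotted line marks a slope of 1.

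No difference in slope between KO and WT tumors passed the test for any member. The product of genotype and proliferation level had 0 of 40 members past the test in edgeR, DESeq2, and limma-voom, and 0 at an unadjusted p under 0.05 in edgeR. Over all genes the product passed for 254 of 25054 in DESeq2 and for 0 of 15413 in limma-voom. With so few calls over all genes, 0 members does not show that the slopes were alike. Fitted within the 8 KO tumors alone, 16 of 40 members rose with the proliferation level, beside 3.62% of all genes. Within the 8 WT tumors, 4 did (*Brca1*, *Eme1*, *Fancd2*, and *Polq*), beside 0.402% of all genes, and these 4 were among the 16. *Brca1* had the same slope of 0.87 in both groups, and *Polq* had 0.66 in KO and 0.88 in WT. All 16 were among the 23 called in the 16 tumors.

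**Figure D5:**
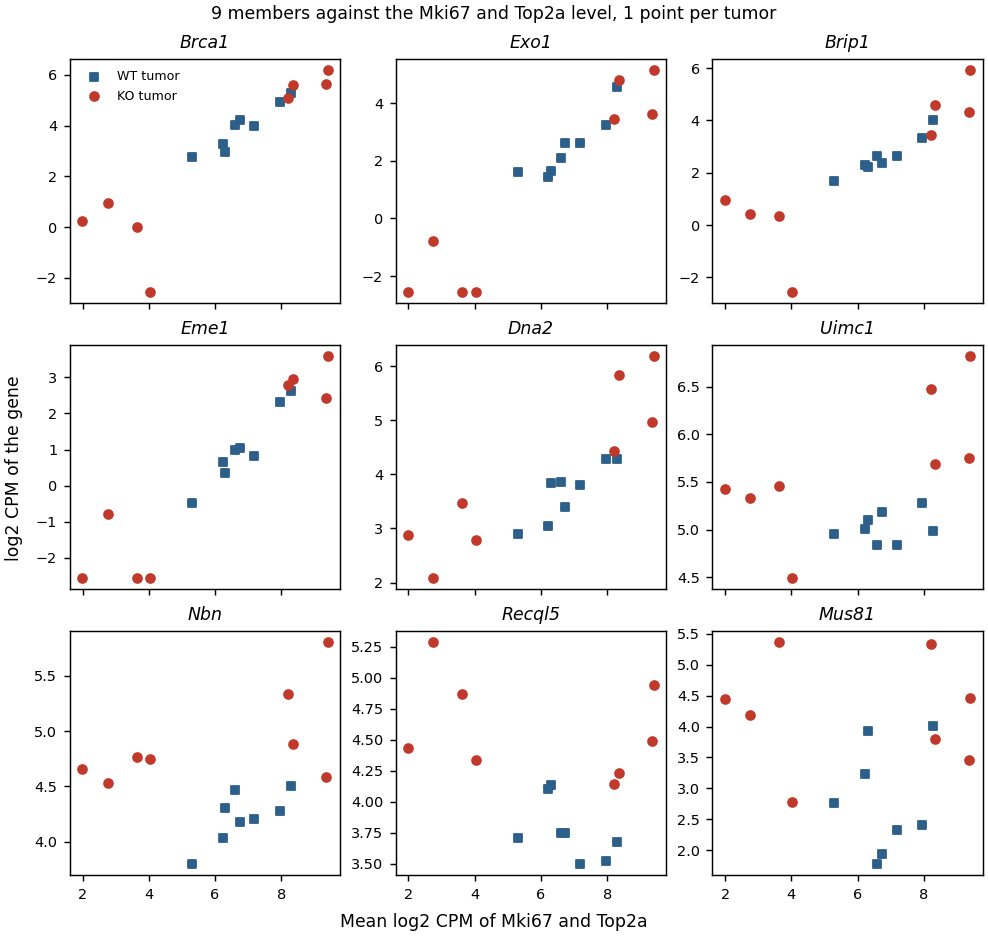
Log2 CPM of 9 members (y axis, a panel each) against the mean log2 CPM of *Mki67* and *Top2a* (x axis), with WT tumors as blue squares and KO tumors as red circles. *Brca1* and *Eme1* rose within each genotype. *Exo1* and *Brip1* passed the test within KO tumors but not within WT tumors, with close slopes (*Exo1* 1.08 in KO and 1.00 in WT, *Brip1* 0.71 and 0.74). All KO points lie above all WT points for *Nbn* and *Recql5*, and 4 KO tumors lie to the left of every WT tumor.

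With the proliferation level in the fit, most genotype estimates had a smaller error. The standard error of the difference between KO and WT was smaller with the covariate in 37 of 40 members, with a median of 0.51 without it and 0.36 with it. The estimate moved toward 0 in 23 members and changed sign in 6. Only 1 KO tumor lay inside the WT range of the proliferation level, so the adjusted difference rests on a straight line drawn across the gap. Equal proliferation here means an equal mean of 2 genes only. In that fit *Mki67* itself kept an estimate of 0.36 and *Top2a* one of -0.40. Of 38 genes in a broader proliferation list, 4 (*Bub1*, *Ccnb1*, *Cdc20*, *Cdk1*) were still called lower in KO, beside 3.98% of all genes. None was called higher, beside 2.72%.

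The 4 KO tumors with the lowest proliferation level were also the ones in which osteoblast genes took 0.0575% to 0.199% of counts and in which muscle, salivary gland, or lung genes were raised, and the part of these genes in the members' slopes was not tested beyond leaving out 3 of the 4 tumors. Without Prince, Montana, and Oregon, 15 of 40 members still rose with the proliferation level, all 15 among the 23, and 0 members were called between KO and WT with or without the covariate. Of 16616 genes, 608 were called on the proliferation level there, in either direction. Between KO and WT, 439 were called without the covariate and 220 with it. With counts summed per mouse (8 KO and 4 WT mice), 21 of the 23 rose with the proliferation level and 0 members were called between KO and WT. Of 16007 genes, 1549 were called on the proliferation level in those sums. Between KO and WT, 10 were called without the covariate and 25 with it.

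Promoter windows of RefSeq (GRCm38.p6, 250 bases before to 50 after a gene's start) were matched for 30 of 40 members and searched on both strands for letters known from cell cycle promoters. The E2F letters (TTTCGCGC, TTTGGCGC, TTTCCCGC, or TTTGCCGC) occurred in 4 of 30 members (*Bard1*, *Brca2*, *Fancg*, *Rad51c*) and in 2.6% of all genes with a window. The CHR letters (TTTGAA) occurred in 5 of 30 members (*Bard1*, *Eme1*, *Polq*, *Rad51b*, *Uimc1*) and in 20.2% of all genes, and the NF-Y box (CCAAT), whose letters overlap neither of the others, in 17 of 30 and in 41.1% of all genes. A match describes letters only, and shares were not tested. The bases upstream of the start are shown for *Bard1* and *Brca2* (E2F letters in capitals), *Polq* (CHR letters in capitals), and *Brca1* (CCAAT in capitals), 4 genes that rose with the proliferation level, and for *Recql5* (CCAAT in capitals), whose slope did not pass the test and which rose in KO tumors. They lie at chr1:71102973-71103222 (minus strand, *Bard1*), chr5:150522371-150522620 (plus strand, *Brca2*), chr16:37011536-37011785 (plus strand, *Polq*), chr11:101551956-101552205 (minus strand, *Brca1*), and chr11:115933493-115933742 (minus strand, *Recql5*), and are written 5′ to 3′ on the gene's strand. A further CHR match of *Polq*, at -3 from the start, runs past the bases shown and is not marked.
Bard1: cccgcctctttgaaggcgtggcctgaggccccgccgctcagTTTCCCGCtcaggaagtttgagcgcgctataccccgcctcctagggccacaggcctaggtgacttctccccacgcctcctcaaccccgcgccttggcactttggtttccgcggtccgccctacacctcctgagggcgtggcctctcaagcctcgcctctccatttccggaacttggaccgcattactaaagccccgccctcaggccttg
Brca2: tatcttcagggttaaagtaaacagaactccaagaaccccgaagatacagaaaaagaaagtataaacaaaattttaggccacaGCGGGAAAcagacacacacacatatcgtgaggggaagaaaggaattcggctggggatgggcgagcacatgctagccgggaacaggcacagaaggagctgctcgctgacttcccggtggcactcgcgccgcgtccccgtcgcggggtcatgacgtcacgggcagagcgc
Polq: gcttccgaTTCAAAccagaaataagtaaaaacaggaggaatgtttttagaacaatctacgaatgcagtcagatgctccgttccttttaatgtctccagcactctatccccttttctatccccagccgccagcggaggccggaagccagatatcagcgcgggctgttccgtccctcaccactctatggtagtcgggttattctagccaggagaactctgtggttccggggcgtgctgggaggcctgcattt
Brca1: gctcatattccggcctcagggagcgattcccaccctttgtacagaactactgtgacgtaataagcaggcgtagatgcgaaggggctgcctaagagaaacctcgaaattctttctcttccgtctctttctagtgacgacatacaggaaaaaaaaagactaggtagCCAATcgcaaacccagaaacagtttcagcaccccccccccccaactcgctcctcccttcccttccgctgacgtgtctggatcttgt
Recql5: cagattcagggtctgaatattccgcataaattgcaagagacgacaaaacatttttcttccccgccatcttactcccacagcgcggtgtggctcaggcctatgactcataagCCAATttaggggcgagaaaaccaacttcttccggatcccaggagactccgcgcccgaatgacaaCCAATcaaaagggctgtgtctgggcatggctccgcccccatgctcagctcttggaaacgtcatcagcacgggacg

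The pathway had 35 further genes outside the set, among them the single-strand binding proteins, the BTR subunits, the BRCA1-A subunits, and the Fanconi-associated proteins, all 35 tested. None rose or fell in KO tumors with or without the covariate by edgeR, where 2 were higher and 1 lower at an unadjusted p under 0.05 without it and 3 higher and 2 lower with it. DESeq2 called 1 higher and 0 lower without the covariate, 1 higher and 1 lower with it, and limma-voom none. Their median log2 fold change was 0.16, above 0 in 22 of 35. On the proliferation level, 8 of 35 rose and 0 fell, beside 8.37% and 8.27% of all genes, with 3 lower at an unadjusted p under 0.05. *Parpbp*, which restrains recombination, had a slope of 0.86 ± 0.09 (edgeR adjusted p = 1.12e-05), *Rad51ap1*, a cofactor of strand invasion, 0.70 ± 0.09 (edgeR adjusted p = 7.37e-05), and *Usp1*, the enzyme that removes ubiquitin from FANCD2, 0.33 ± 0.04 (edgeR adjusted p = 7.96e-05).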

How the data were processed

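The authors deposited raw counts of reads per gene for 16 tumors, made by aligning reads with Novoalign 2.08.01 to mm10 and Ensembl splice junctions and counting them with the USeq package, with no strand setting given in the sources used here. The exons of 16 of the 40 members overlap those of another gene of the table, 15 of them on the opposite strand, and reads shared there could not be assigned. Groups came from the genotype labels. Members and gene lists were chosen with earlier results of these data known.

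Counts were filtered with filterByExpr (minimum count 10, minimum total 15), normalized with TMM and tested with the quasi-likelihood method of edgeR 4.0.16 in R 4.3.3, 2-sided, with Benjamini-Hochberg adjustment over all 15413 genes tested and a threshold of 0.05. Models were fitted over all 16 tumors, with genotype alone, with genotype and the centered mean log2 CPM (prior count 2) of *Mki67* and *Top2a*, and with their product. The fits within 1 genotype used the same 15413 genes. Standard errors were derived from the F statistic, and edgeR also bounds each p by a Poisson test. CPM was computed on TMM-scaled library sizes of the tested genes. The common biological coefficient of variation was 70.4%. Of the WT tumors, 4 share a mouse and 2 share another, so tumors were not all independent.

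Members given with full statistics were those past the threshold in either comparison, the 5 with the smallest p on the proliferation level, those whose groups did not overlap, *Recql5*, *Nbn*, *Rad52*, *Mus81*, and the member with the smallest p in each role. Fits were tested on simulated data. Alternatives were DESeq2 1.42.0, limma 3.58.1, other scaling and filters, sums per mouse, thinned libraries, added covariates, and tumors left out. Gene positions came from GENCODE vM21 (GRCm38) and promoter windows from RefSeq.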

Additional observations from a re-analysis of the deposited data

Results flagged for a closer look

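Of 80 groups checked (40 members in 2 genotypes), 10 had a highest or lowest tumor whose gap to the next exceeded Dixon's 95% critical share of the group's range in log2 CPM (that share is given for each), where chance alone gives about 1 in 20. Among KO tumors the lone low tumor was Massa for *Blm* (0.527), *Slx4* (0.576), and *Fancb* (0.555), Grilka for *Rad51d* (0.549) and *Fancl* (0.532), and Montana for *Palb2* (0.589). Massa and Grilka were the shallowest libraries, at 1109487 and 1812818 counts. In all 6 of these cases the lone tumor had 0 or 1 count, under the floor of 3 counts, so the size of the gap depended on the prior count. The floor lay below every other tumor for *Slx4* (6.69 against 18.1 CPM), *Rad51d* (4.03 against 6.12 CPM), and *Palb2* (0.765 against 2.24 CPM). For *Blm*, *Fancb*, and *Fancl* it did not. Among WT tumors, that of N215 was alone at the top for *Bard1* (0.565) and *Recql4* (0.531), N43 spine was alone at the bottom for *Rad50* (0.66), and the lung tumor of N25 for *Slx4* (0.58).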

How the results depend on the processing

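The number of members called between KO and WT, 1 in the main comparison, was 0 without the filter, in limma-voom, in sums per mouse, without N42, without Prince, Montana, and Oregon, and with a ribosomal RNA covariate, 2 in thinned libraries (20 members tested), 6 in DESeq2, and 0 to 5 with 1 tumor left out. At equal proliferation, 4 became 2 without the filter, 0 in limma-voom, in sums per mouse, without N42, without Prince, Montana, and Oregon, and with the ribosomal RNA covariate, 8 in DESeq2, and 0 to 7 with 1 tumor left out. On the proliferation level, 23 became 9 in thinned libraries, 15 without Prince, Montana, and Oregon, 16 within KO, 4 within WT, and 21 to 24 with 1 tumor left out. DESeq2 size factors gave 1, 4, and 23. Calls over all genes changed as well. Between KO and WT they were 679 of 25054 without the filter and 473 of 9826 in thinned libraries. They were 923 of 15829 without N215 (5 members) and 252 of 15535 without N42 L shoulder (0 members). At equal proliferation they were 987 of 25054 without the filter. They were 1542 of 15829 without N215 (7 members) and 494 of 15492 without N43 spine (0 members). The cause of these changes was not tested. The members' median log2 fold change stayed above 0 in all 26 alternatives, from 0.0874 (limma-voom) to 0.879, and at equal proliferation in all 27, from 0.0525 (without Prince, Montana, and Oregon) to 0.558. The proliferation difference of -0.86 became 1.02 without Prince, Montana, and Oregon, the lowest tumors on that level, and stayed below 0 in the other 22 alternatives.

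In limma-voom 24 of 40 members were above 0, against 35. Among the members given with full statistics, signs reversed there for 4 that were not called, *Brca1* (-0.52), *Exo1* (-0.98), *Eme1* (-0.19), and *Polq* (-0.11). At equal proliferation signs reversed for *Brca1* (0.012 in sums per mouse, 0.15 with the ribosomal RNA covariate, 0.18 with a broader proliferation list, -0.23 to 0.0021 with 1 tumor left out, the highest without Oregon), *Exo1* (0.038 with the broader list), *Eme1* (-0.019 without Prince, Montana, and Oregon, -0.39 to 0.47 with 1 tumor left out, the lowest without Prince), and *Polq* (-0.32 without Prince, Montana, and Oregon, and -0.041 to 0.60 with 1 tumor left out, the lowest without Montana). The single-gene alternatives at equal proliferation and those of the proliferation difference were chosen after seeing the data. Depth limits the KO libraries, where 3 counts reach 6.69 CPM. Over all genes, 287 were called higher and 331 lower in KO, against totals of 2517 in DESeq2, 17 in limma-voom, 10 in sums per mouse, 8 without N42, and 7 with the ribosomal RNA covariate. At equal proliferation, 419 higher and 613 lower became totals of 2682, 19, 25, 21, and 13 in the same order and 220 without Prince, Montana, and Oregon. On the proliferation level, 1290 higher and 1274 lower became totals of 4888 in DESeq2, 1139 in limma-voom, 1549 in sums per mouse, 1162 without N42, 1620 in thinned libraries, and 608 without Prince, Montana, and Oregon. No paired analysis was possible because no mouse gave both a KO and a WT tumor.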
